A study of Homo sapiens with 6 samples.

Results

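The HOX genes measured in oncospheres of SUM159 cells numbered 28 of the 19775 genes that had a probe set of their own. They were taken as every gene whose only symbol in the array annotation is HOX followed by a cluster letter (A to D) and a number, and where a gene had several probe sets the one of highest average signal stood for it, a choice blind to the groups. The set held all 10 genes of the HOXB cluster (chromosome 17), all 9 of the HOXC cluster (chromosome 12), 8 genes of the HOXD cluster (chromosome 2) and 1 of the HOXA cluster (chromosome 7), which was HOXA2. The other HOXA genes and HOXD3 had no probe set with a single symbol in the annotation used and were not analysed here. Another 3 probe sets, annotated to HOXD3, HOXD4 and LOC401021 together, stayed between 6.02 and 6.48 on every array.

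SUM159 is an established human breast cancer cell line. Control cells carried the empty lentiviral vector pLVX-puro, and the comparison cells carried that vector with the coding sequence of human SCGB3A1, a secreted secretoglobin. Both pools had been under puromycin (2 µg/ml) for 7 days, and both were then kept for 5 days as floating spheres on ultra-low attachment dishes in serum-free medium, with 3 arrays in each group. They are pools of infected cells selected for the vector, and the labels call the replicates biological. Whether each was a separate infection is not given in the sources used here, so the spread behind each p-value is that between these spheres. Values are RMA expression on the log2 scale (robust multiarray average, which brings all arrays to 1 distribution).

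HOX proteins are transcription factors that bind DNA through a homeodomain and give cells their position along the body axis. Their genes lie in 4 clusters, and genes at the same place in different clusters form numbered paralog groups, with low numbers active in anterior and high numbers in posterior parts of the embryo. Adult epithelia keep part of this pattern, several HOX genes act in mammary gland development, and Polycomb and trithorax complexes hold the genes silent or active. HOX proteins often bind DNA together with homeobox partners of the TALE class, such as PBX and MEIS.

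Promoter sequences of 11 of the 28 members were in the RefSeq table (GRCh38.p14), each with 250 bases before and 50 bases after a start. HOXC4 and HOXC5 share 1 such window, so 11 members make up 10 distinct windows. The windows below were chosen to show members that were above background in these cells (HOXC4 and HOXC5, HOXD8) beside a member of the same cluster as HOXD8 that was not (HOXD12). Capitals mark the dinucleotide CG. The HOXC4 and HOXC5 window is chr12:54016638-54016937, that of HOXD8 chr2:176129455-176129754 and that of HOXD12 chr2:176099545-176099844, all on the plus strand.

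HOXC4 and HOXC5: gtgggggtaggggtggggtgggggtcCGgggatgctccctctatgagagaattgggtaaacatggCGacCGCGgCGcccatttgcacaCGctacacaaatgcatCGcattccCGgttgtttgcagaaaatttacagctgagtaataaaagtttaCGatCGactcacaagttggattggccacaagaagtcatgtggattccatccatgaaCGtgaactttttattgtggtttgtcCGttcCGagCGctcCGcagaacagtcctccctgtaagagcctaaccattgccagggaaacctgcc

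HOXD8: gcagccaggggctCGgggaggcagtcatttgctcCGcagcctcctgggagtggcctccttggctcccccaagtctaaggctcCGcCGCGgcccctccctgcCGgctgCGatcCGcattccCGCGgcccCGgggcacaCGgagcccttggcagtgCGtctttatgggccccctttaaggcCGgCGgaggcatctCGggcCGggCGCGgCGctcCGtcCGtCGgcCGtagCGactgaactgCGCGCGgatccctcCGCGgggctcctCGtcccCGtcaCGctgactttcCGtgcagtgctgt

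HOXD12: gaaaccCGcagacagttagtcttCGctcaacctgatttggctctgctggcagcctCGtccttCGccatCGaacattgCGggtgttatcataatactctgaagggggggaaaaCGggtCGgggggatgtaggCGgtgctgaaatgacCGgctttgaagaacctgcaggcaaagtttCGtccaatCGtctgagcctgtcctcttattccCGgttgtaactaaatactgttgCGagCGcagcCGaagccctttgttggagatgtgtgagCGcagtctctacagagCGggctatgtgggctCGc

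The CG dinucleotide occurred 15 times in the window of HOXC4 and HOXC5, 34 times in that of HOXD8 and 19 times in that of HOXD12, where the median over 35116 promoters of the table was 14. Among the members not above background the count ran from 4 (HOXD4) to 36 (HOXD1), so the number of CG dinucleotides did not separate the members by level. CCAAT, searched on both strands, was found in the windows of 9 of the 11 members and in 34.6% of all promoters. The shared window of HOXC4 and HOXC5 holds it and is counted for both members. The sequence TGATTNAT, a form of the site that HOX and PBX proteins bind together, was found on either strand for HOXA2 and HOXD11 and in 2.8% of all promoters. TATAAA was found for 1 member (HOXD13) and in 11.5% of all promoters. None of these motifs contains another, and a match describes the letters only.

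Of the HOX genes measured, most of those above background were in the HOXC cluster. Only HOXA2 stood for the HOXA cluster, so nothing is said of its other genes. The table gives no detection calls, so background was taken from 107 probe sets of olfactory receptor genes, which are mostly silent in epithelial cells: a probe set was above the background range where it exceeded the 95th percentile of these on each of the 6 arrays, a limit that lay between 6.94 and 7.16. By this rule 10 of 28 HOX genes were above the range, against 54.6% of all genes. They were 7 of 9 HOXC genes, 2 of 10 HOXB genes (HOXB5 and HOXB7) and 1 of 8 HOXD genes (HOXD8), while HOXA2 was not. The range is a threshold and no proof of transcription: among 6 marker genes of blood, endothelium and liver, PTPRC (mean 7.75) and PECAM1 (8.27) exceeded it as well, while CD3E, CDH5, VWF and ALB did not. Probe sets also bind with different strength, so the values below do not order the genes by abundance.

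**Figure D1:**
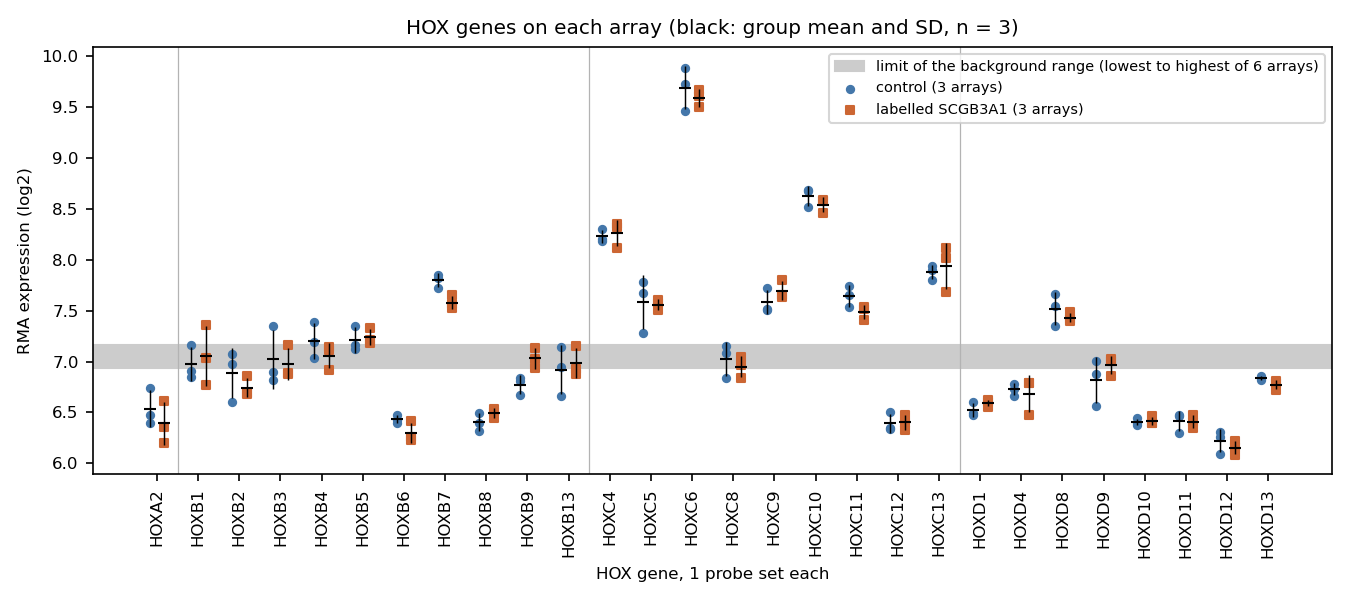
RMA expression (vertical axis, log2) of the 28 HOX genes on each array, with circles for control and squares for the arrays labelled SCGB3A1, black bars for the mean and SD of each group (n = 3), and a grey band for the background limit, 6.94 to 7.16 over the 6 arrays. The HOXC genes stand above the band except HOXC8 and HOXC12, and most HOXB and HOXD genes lie in or under it.

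The anterior end of the HOXC cluster, HOXC4, HOXC5 and HOXC6, was above the range on all arrays. HOXC6, a gene active in the thoracic region of the embryo and in mammary epithelium, read 9.72, 9.88 and 9.46 in control and 9.60, 9.49 and 9.67 in the arrays labelled SCGB3A1. The control arrays enclosed all 3 labelled ones. HOXC4, which is used in lymphoid cells as well as in the neck and thorax of the embryo, read 8.21, 8.30 and 8.19 against 8.35, 8.12 and 8.32. Its neighbour HOXC5 read 7.78, 7.28 and 7.68 against 7.57, 7.60 and 7.50. The lowest HOXC5 value was on control replicate 2, where the gene missed the 99th percentile of the olfactory receptors (7.35). The spans of these 3 genes begin at the same base in the RefSeq gene table and overlap, and whether their probe sets read separate transcripts was not tested.

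The posterior HOXC genes were above the range except HOXC12. HOXC9, of the paralog group that mammary gland development needs, read 7.72, 7.52 and 7.51 in control and 7.81, 7.63 and 7.65 in the labelled arrays. HOXC10, which patterns lumbar segments and the hindlimb, read 8.68, 8.51 and 8.69 against 8.57, 8.46 and 8.59, and the groups overlapped for both genes. HOXC11 read 7.53, 7.74 and 7.65 against 7.52, 7.40 and 7.53, so that the highest labelled value reached the lowest control value. HOXC13, a regulator of hair keratins, read 7.90, 7.80 and 7.94 against 8.02, 8.12 and 7.69. Its labelled arrays lay on both sides of the controls, with an SD of 0.23 against 0.07. HOXC12, which lies between HOXC11 and HOXC13, stayed between 6.33 and 6.50, under the range on all arrays. HOXC8, a thoracic gene between HOXC9 and HOXC6, straddled the limit and was above it on 3 of 6 arrays, with values from 6.84 to 7.16.

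In the HOXB cluster, HOXB7, which has been studied as an oncogene in breast cancer, read 7.82, 7.73 and 7.85 in control and 7.65, 7.52 and 7.57 in the labelled arrays. All 3 labelled arrays were under all 3 controls. HOXB5 was just above the range, at 7.35, 7.16 and 7.12 against 7.18, 7.21 and 7.33, and its second probe set, with a mean of 7.22, was above the limit on 5 of 6 arrays. HOXB4, a factor of blood stem cells, fell just short of the rule, at 7.19, 7.38 and 7.03 against 7.15, 6.92 and 7.11, above the limit on 4 of 6 arrays. HOXB1, HOXB3 and HOXB13 were above it on 2 arrays each, and HOXB2 and HOXB9 on 1. HOXB6 and HOXB8 were under it on all 6, with values from 6.23 to 6.54.

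HOXD8 was the only HOXD member above the range, at 7.66, 7.35 and 7.55 in control and 7.39, 7.48 and 7.42 in the labelled arrays. The labelled values fell inside the control values. The other 7 HOXD genes (HOXD1, HOXD4, HOXD9, HOXD10, HOXD11, HOXD12 and HOXD13) were under the limit on all 6 arrays, and their means ran from 6.19 for HOXD12 to 6.89 for HOXD9. The posterior genes of this cluster are known for patterning the limbs and the genital tract. HOXA2, a hindbrain gene, was also under the limit on every array, with values between 6.20 and 6.74.

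Read by paralog group, none of the 5 members of groups 1 to 3, which pattern the hindbrain, was above the range, while 9 of the 18 members of groups 4 to 11 were. Groups 4 to 11 each had at least 1 member above, and only group 5 had more than 1 (HOXB5 and HOXC5). In group 12 none of 2 members was above and in group 13 only HOXC13 of 3. In groups 4, 6, 9, 10, 11 and 13 the member above the range was the HOXC gene, in group 7 HOXB7 and in group 8 HOXD8. HOXB7 was the only member of group 7 measured here.

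**Figure D2:**
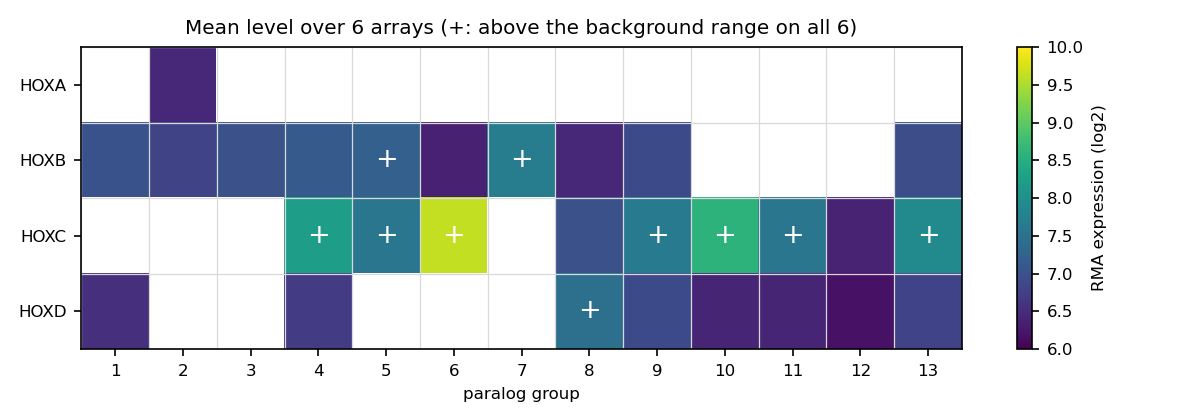
Mean RMA expression over 6 arrays (colour, log2) of each HOX gene, by cluster (vertical axis) and paralog group (horizontal axis), with a plus for genes above the background range on all 6 arrays and white where no gene was measured or none exists. Plus signs fall on 7 HOXC genes, 2 HOXB genes and HOXD8.

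The second question was whether the HOX genes differed between the groups. The 1 probe set of SCGB3A1 itself read 6.80, 6.89 and 7.05 in control and 6.60, 6.92 and 6.71 in the labelled arrays, so the gene meant to be raised was no higher there (difference -0.17 ± 0.10, SE; limma, adjusted p = 0.83). Whether that probe set covers the vector's insert is not known, so directions hold for the arrays as labelled. The arrays correlated with each other at 0.989 to 0.996 over all probe sets, and control replicate 2 stood apart, with correlations of 0.989 to 0.993. Among the 28 HOX genes that array held the highest value for 6 and the lowest for 5. Of the markers of breast cancer lines, VIM, CD44, KRT5, KRT14, KRT8 and KRT18 were above the background range and EPCAM and CDH1 were not. Of the luminal markers ERBB2 and GATA3 were above it, and the estrogen receptor ESR1, PGR and FOXA1 were not.

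No HOX gene passed an adjusted p of 0.05 in limma, where 0.0303% of all genes did. Adjusted p-values ran from 0.72 to 1.0 over the 28 genes. Before adjustment 2 of 28 (HOXB9 and HOXB7) had p under 0.05, against 6.82% of all genes, with 1 higher (3.93% of all genes) and 1 lower (2.89%), so the members' share was near the background. Both kept an unadjusted p under 0.05 whichever array was left out. They were picked by p on these same arrays, so this is no independent support. Neither had an unadjusted p under 0.05 when the probe sets of a gene were averaged. The groups did not overlap for 3 of 28 members, HOXB9 (higher) and HOXB7 and HOXD13 (both lower), against 12.3% of all genes (7.09% higher, 5.24% lower). The count at unadjusted p was 4 without control replicate 1 (HOXC11 and HOXD9 joined; 7.09% of all genes in that fit), without control replicate 3 (HOXB4 and HOXC6 joined, 6.37%) and without SCGB3A1 replicate 3 (HOXB6 and HOXC13 joined, 9.92%). No adjusted p of a member passed in these fits. Since less RNA per cell and fewer cells that express a gene cannot be told apart in bulk samples, a difference could be either.

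HOXB9, another gene of the mammary paralog group 9, read 6.84, 6.67 and 6.81 in control and 7.02, 7.13 and 6.93 in the labelled arrays. All 3 labelled values were above all 3 controls, at a level that exceeded the background limit on 1 array. Its log2 fold change was 0.26 ± 0.08 (SE; 95% interval 0.08 to 0.43; limma, adjusted p = 0.72). The other probe set of HOXB9 gave -0.04. HOXB7, whose values stand above, differed by -0.22 ± 0.07 (SE; 95% interval -0.38 to -0.06; limma, adjusted p = 0.74). Its other probe sets, with means of 7.53 and 7.44, gave -0.08 and 0.10. Neither difference was therefore shared by every probe set of its gene. HOXD13, under the background limit, read 6.84, 6.82 and 6.86 against 6.81, 6.79 and 6.72, so its groups separated by a small step (-0.07 ± 0.07, SE; limma, adjusted p = 0.91). Its other probe sets gave -0.04 and 0.07.

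The next members by p were HOXC11, HOXB6, HOXB4 and HOXD9, and none of them had an unadjusted p under 0.05. HOXC11 gave -0.16 ± 0.08 (SE; limma adjusted p = 0.82), with its 95% interval from -0.33 to 0.02. HOXB6 read 6.48, 6.43 and 6.40 in control and 6.26, 6.23 and 6.42 in the labelled arrays. That is a log2 fold change of -0.13 ± 0.08 (SE; adjusted p = 0.83) at background level, with 1 labelled array among the controls. HOXB4 gave -0.14 ± 0.10 (SE; adjusted p = 0.86) and its groups overlapped. Its difference was -0.05 without control replicate 2 and -0.23 without control replicate 3. HOXD9 read 7.01, 6.57 and 6.87 against 7.02, 7.01 and 6.86, so its low value was on control replicate 2 and the other arrays lay together (0.15 ± 0.11, SE; adjusted p = 0.87). Without that array its difference was 0.02.

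**Figure D3:**
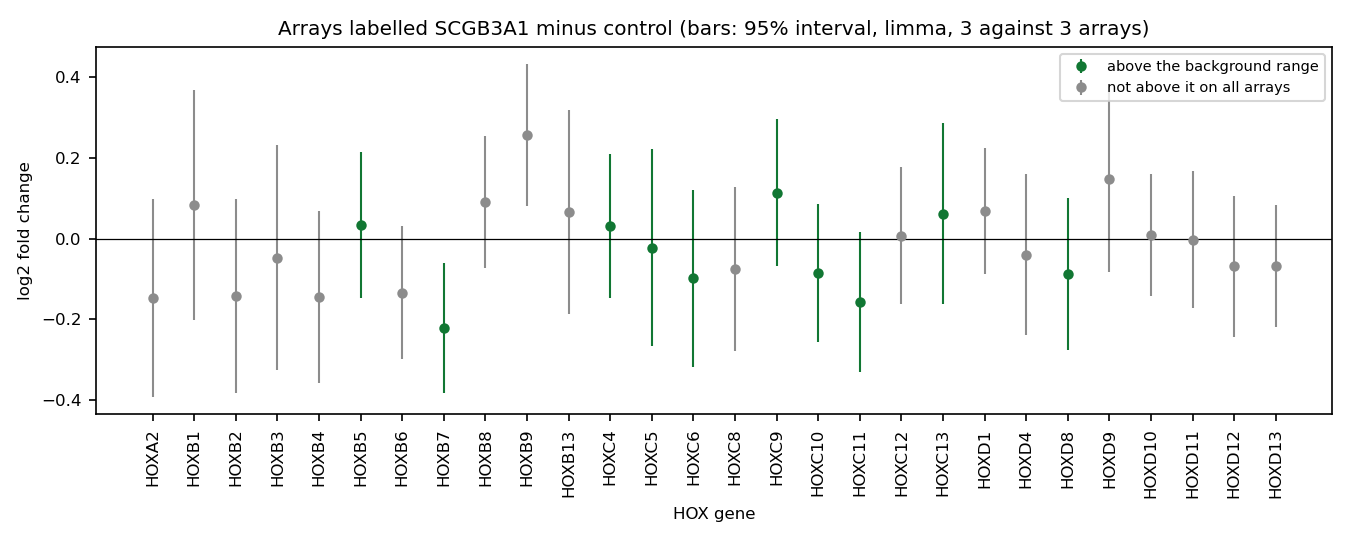
Log2 fold change (vertical axis), the arrays labelled SCGB3A1 minus control, of each HOX gene with its 95% interval from limma (3 against 3 arrays), in green for genes above the background range. The intervals of HOXB7 and HOXB9 leave out 0 before adjustment, and all intervals lie between -0.39 and 0.43.

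Across the family, 12 log2 fold changes were positive and 16 negative, with a median of -0.03 and a range from -0.22 to 0.26. Over all genes the median was 0.01 and 54.3% were positive. By cluster the medians were -0.007 for HOXB, -0.02 for HOXC and -0.02 for HOXD. Among the 10 genes above the background range, 6 were negative and the median was -0.05. For the probe sets that stand for these genes, the 95% intervals together spanned -0.38 to 0.30. A fold under 0.767 or over 1.23 lay outside all of these intervals. Another probe set of HOXB7 had an interval that reached higher, from -0.18 to 0.39. For members at background level a small fold change says little, because RMA draws weak signals towards a common floor. The spread between replicates of the HOX genes (median SD 0.11) was close to that of genes over the same range of levels (0.10).

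Of the 28 members, 13 had several probe sets, and these agreed in sign for 3 (HOXB3, HOXD4 and HOXD9) and differed in sign for 10. Over all 44 HOX probe sets, 2 had an unadjusted p under 0.05, against 6.2% of all probe sets. Of the 44, 11 were above the background range on all arrays, the 10 that stand for the genes above and a second one of HOXB7. HOXB5, HOXB7, HOXC6 and HOXC13 were read only by probe sets of the kinds marked as able to bind related transcripts, so their levels may include paralogs.

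**Figure D4:**
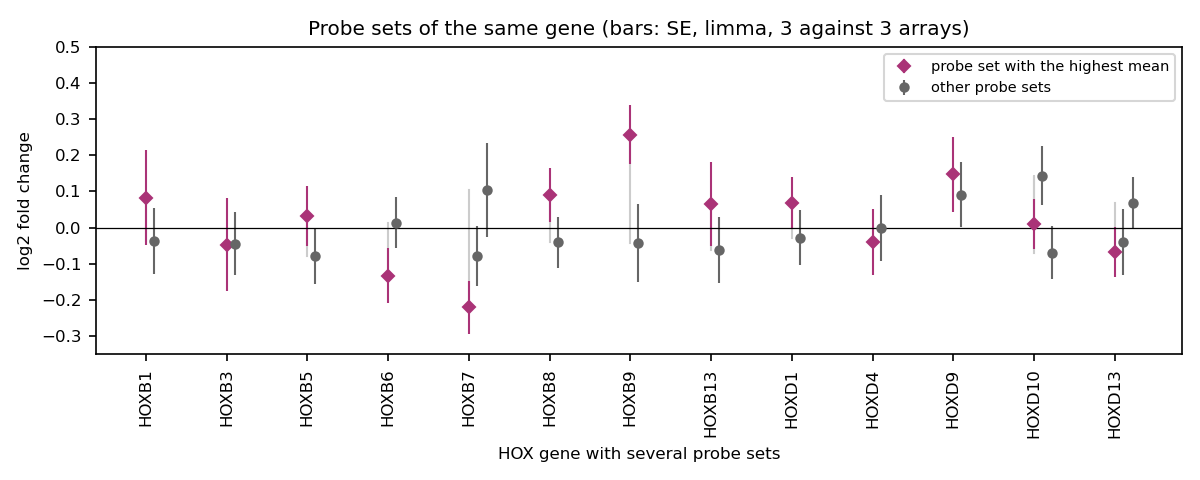
Log2 fold change (vertical axis), the arrays labelled SCGB3A1 minus control, of every probe set of the 13 HOX genes that have several, with SE bars from limma; diamonds mark the probe set with the highest mean. The probe sets of 10 genes lie on both sides of 0, HOXB7 and HOXB9 among them.

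Most partners of HOX proteins were above background. Against 54.6% of all genes, 9 of 10 TALE genes measured were above the range, among them MEIS1 (mean 9.74), PBX2 (9.67) and TGIF1 (9.50). None passed the adjusted or the unadjusted threshold, and the median log2 fold change was -0.08. PKNOX2 had the smallest p (-0.14 ± 0.07, SE; limma adjusted p = 0.82), followed by PBX4 (-0.12) and TGIF1 (-0.19).

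By contrast in level, none of the 12 noncoding RNA genes measured at the clusters was above the background range, against 54.6% of all genes. The list held 26, and the others, such as HOXC-AS1, HOXC-AS2 and HOXC13-AS, had no probe set with a single symbol. Of the HOXC cluster only HOTAIR and HOXC-AS3 were measured. HOTAIR, which is transcribed from the HOXC cluster against the direction of its HOX genes, was under the range. HOXC12 of that cluster was under it as well, while HOXC11 beside HOTAIR was above. HOTAIR read 6.54 on average in control and 6.37 in the labelled arrays (-0.18 ± 0.08, SE; limma, adjusted p = 0.79), the only one of the 12 with an unadjusted p under 0.05, against 6.82% of all genes. HOXA-AS3 gave 0.15 and MIR10A 0.16, and the highest mean was that of HOTTIP (7.01). Probe sets under the symbol of a microRNA do not read the mature microRNA. The median of the 12 was 0.05.

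Genes that flank the clusters were mostly above background, also beside clusters whose HOX genes were not. At the ends of the HOXD cluster, where 7 of 8 members were under the limit, MTX2, a mitochondrial protein whose gene is the next coding one, averaged 9.70 over the 6 arrays. LNPK, a protein of the endoplasmic reticulum on the other side, averaged 8.72. Beside HOXC, SMUG1, a DNA repair enzyme, averaged 8.98 and CALCOCO1 8.50. At the HOXB cluster the nearest genes SKAP1 and TTLL6 were not above the range, nor was PRAC1, which lies inside that cluster. EVX1, beside the HOXA cluster, missed the rule and was above the limit on 5 of 6 arrays. In all 12 of 16 flanking genes were above the range, against 54.6% of all genes. The highest means were those of ATP5MC2 (12.07), TAX1BP1 (11.07) and CBX5 (10.79). None of the 16 passed either threshold (median log2 fold change 0.0072), and the smallest p-values belonged to MTX2 (0.16), PRAC1 (-0.13) and SNX10 (-0.12).

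The chromatin regulators of HOX genes were mostly above background, and none passed the adjusted threshold. All 26 Polycomb genes measured were above the background range, against 54.6% of all genes. Their highest means were those of RBBP7 (12.04), RBBP4 (11.15) and RYBP (11.13). PHC2, a subunit of Polycomb repressive complex 1, gave 0.23 ± 0.07 (SE; limma, adjusted p = 0.72) and PCGF5, another subunit, -0.17 (adjusted p = 0.81). These were the 2 of 26 with an unadjusted p under 0.05, against 6.82% of all genes. RBBP7 gave -0.13, and the list's median was -0.03. A further list held trithorax members, H3K27 demethylases and other factors, AFF4, DOT1L and CTCF among them. Of its 21 genes measured, 19 were above the range, against the same 54.6% of all genes. Their highest means were those of DPY30 (10.82), AFF4 (10.50) and ASH2L (9.60). MEN1, which encodes menin, a partner of the MLL proteins, gave 0.22, ASH2L 0.18 and the methyltransferase KMT2D -0.18, all with adjusted p = 0.78 in limma. These 3 of 21 had an unadjusted p under 0.05, 2 higher and 1 lower, against 6.82% of all genes, and the list's median was -0.0007.

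**Figure D5:**
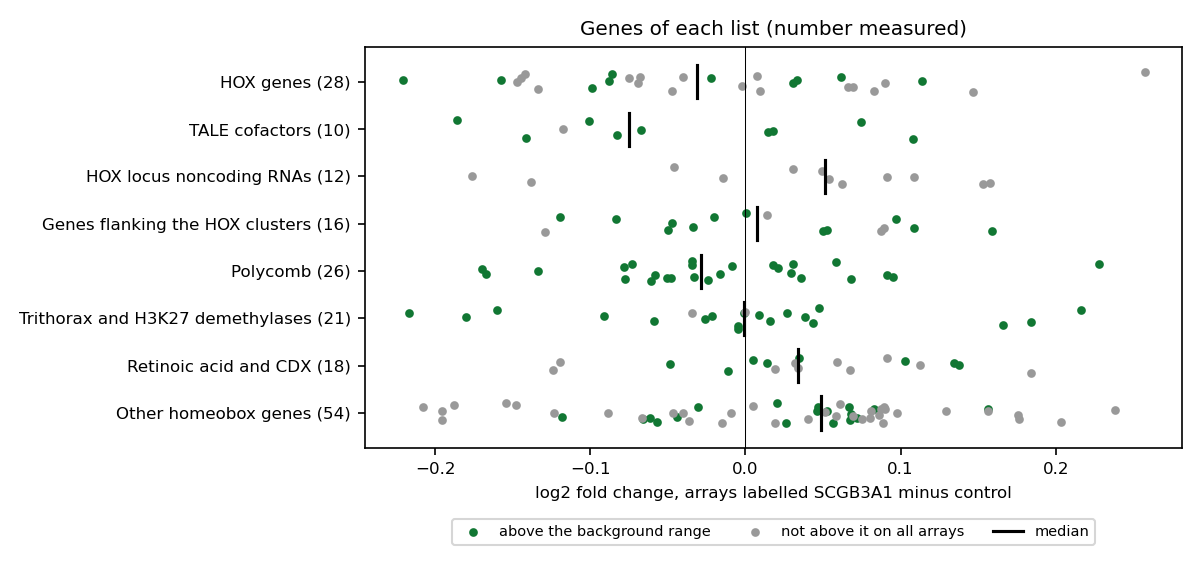
Log2 fold change (horizontal axis), the arrays labelled SCGB3A1 minus control, of the HOX genes and of each list of related genes (vertical axis, number measured), with green points for genes above the background range, grey for the others and a black bar for the median. All medians lie between -0.08 and 0.05, and no noncoding RNA of the HOX clusters is green.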

How the data were processed

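Total RNA of 6 samples was labelled (100 ng each) and hybridised to Affymetrix Human Genome U133 Plus 2.0 arrays. The authors made the deposited log2 values by robust multiarray average in Chipster, which quantile normalizes the arrays, so that a shift in the whole RNA content of a cell would be hidden. Of 54675 probe sets, 62 manufacturer controls were set aside. All 54613 others were fitted with limma 3.58.1 in R 4.3.3 (lmFit, eBayes, two-sided), the kind of test the methods name, and p-values were adjusted by Benjamini-Hochberg over all of them; adjusted p-values in the text come from this fit. The fit was tested on simulated data. Symbols came from the platform annotation (41091 probe sets with 1, 1801 with several, 11721 with none). Precision is limited by the number of arrays. The table held no fold changes or p-values, and its 6 columns were all used. The HOX genes, lists and tests were chosen with earlier results of these data known. Named were members above the background range, the 6 with the smallest p, and up to 3 genes per list by p and by mean. Alternatives covered normalization, variance model, array weights, a replicate block, probe set choice, filters and each array left out.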

Additional observations from a re-analysis of the deposited data

How the results depend on the processing

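No HOX gene passed adjusted p 0.05 in limma under any of 14 alternatives, nor did any gene of the lists. No HOX gene met the other rule of the study's SCGB3A1 gene list either (log2 fold change beyond 0.5, unadjusted p under 0.05, adjusted p under 0.25). The count at unadjusted p ran from 2 to 4 of 28 with 1 array left out, where 4.53% to 9.92% of all genes passed. It was 1 of 28 when probe sets of a gene were averaged (HOXC11). It was 1 of 24 without probe sets marked _x_at or _s_at (HOXB9) and 1 of 15 without probe sets under the median level (HOXB7). With averaging and these filters the share of all genes was not worked out, so those counts have no background beside them. Members whose groups do not overlap, 3 in the comparison of all arrays, numbered 5 to 9 with 1 array left out, where 19.6% to 28.5% of all genes did not overlap either. Such members were 0 of 28 when probe sets were averaged and 1 of 15 without dim probe sets, again with no share of all genes worked out. Members above the background range stayed at 10 whichever array was left out, were 8 at the 99th percentile (HOXB5 and HOXC5 lost), 11 by the mean over arrays (HOXB4 gained) and 6 without _x_at and _s_at probe sets, a filter that removed HOXB5, HOXB7, HOXC6 and HOXC13. The family's median kept its sign, from -0.06 to -0.0034; that of HOXB was -0.08 without control replicate 3, and those of HOXB, HOXC and HOXD turned positive in some alternatives, up to 0.02, 0.02 and 0.0097. The 6 members with the smallest p kept their direction in all their alternatives, HOXB7 between -0.26 and -0.06 and HOXB9 between 0.11 and 0.31. They were chosen by p on these same arrays, so this is no independent support. Single probe sets of HOXB6, HOXB7 and HOXB9 went the other way (0.01, 0.10 and -0.04). SCGB3A1 stayed between -0.26 and -0.10.

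Replicate numbers are shared between the groups. Deviations of samples with the same number correlated at 0.15, -0.14 and -0.09, against up to 0.13, 0.25 and 0.06 with another number. With 3 arrays per group these values cannot decide whether samples of 1 number were handled together. With the replicate block, 0 of 28 members passed adjusted p 0.05 and the family's median was -0.03. At unadjusted p 2 of 28 passed, and the share of all genes in that fit was not worked out.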

Other observations

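The homeobox genes listed here lie outside the HOX clusters and the TALE class. Most were not above background on all 6 arrays, and a few were far above it. Of 54 measured, 18 were above the background range, against 54.6% of all genes. The highest means were those of IRX2 (12.43), a gene of the Iroquois family, DLX1 (10.14), and PRRX1 (10.07), a factor of mesenchymal cells; the values are of different probe sets and do not order the genes by abundance. None passed adjusted p 0.05 in limma, and 6 had an unadjusted p under 0.05, 3 higher and 3 lower (3.93% and 2.89% of all genes), with a median log2 fold change of 0.05. The smallest p-values belonged to LHX4 (0.20), MSX2 (0.18) and LHX6 (-0.21), which were not above the range.

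Retinoic acid is the signal that turns on anterior HOX genes in the embryo. Of 18 genes of its synthesis, breakdown and receptors and of the CDX factors, 8 were above the range, against 54.6% of all genes. These 8 included the receptor genes RXRA (mean 10.28), RXRB (9.22) and RARG (8.29). None of the 18 passed the adjusted or the unadjusted threshold. The smallest p-values were those of ALDH1A3, an enzyme of retinoic acid synthesis (0.18 ± 0.09, SE; limma adjusted p = 0.82), of STRA6, a retinol transporter (0.13), and of CRABP2, which carries retinoic acid to its receptors (0.14). The median of the list was 0.03.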
